A study of Mus musculus with 7 samples.

Results

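The baseline transcriptome of control cortical microglia at the juvenile stage was described from the 3 WT libraries of a series of 7, gene by gene, over the 23420 genes of the count table. The libraries were chosen by their label alone, and the 4 libraries of mice lacking Srgap2 in microglia were not used. The 3 WT mice carried floxed Srgap2 alleles (f/f) but no Tmem119-CreERT2 recombinase, and were littermates of the deleted mice. Tamoxifen was given by gavage on postnatal days 8 and 10 (2 doses, each 75 ug per g of body weight), and the mice were sampled on postnatal day 30. Microglia of the cortex were enriched on 40% Percoll and sorted as CD11b+ CD45low CX3CR1+ cells, about 100000 per cortex, and poly(A) RNA was sequenced from RNA with an integrity number above 8.5. "WT" therefore means floxed, tamoxifen-treated and without Cre, and neither a mouse without floxed alleles nor one without tamoxifen was measured. Each library came from a separately numbered mouse, and sex, litter, sorting day and sequencing batch are not in the labels used here.

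Microglia are the resident macrophages of the brain. They arise from yolk sac progenitors, settle in the brain before birth, renew locally and depend on signalling through the receptor encoded by Csf1r. TGF-beta signalling and transcription factors such as PU.1, Irf8 and Sall1 maintain their mature state. In the juvenile cortex they survey the tissue with motile processes, sense nucleotides released by other cells, tag and engulf synapses with the help of complement, and clear dead cells into a large lysosomal system.

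Total counts were 27016173, 30983968 and 35707304 in WT replicates 1, 2 and 3. Levels are given on a pair of scales. CPM, a gene's share of the library's counts with TMM scaling, compares a gene between libraries, and values are always in the order of replicates 1, 2 and 3. TPM, which divides by the length of the longest annotated transcript, compares genes with each other and is given as a mean of the 3 libraries. A gene was called detected at 1 CPM or more in all 3 libraries. By that rule 10581 genes, 45.2% of the table and the share against which the counts of list members below are to be read, were detected, and 8233, 1967 and 93 of them had a mean of at least 10, 100 and 1000 CPM. A further 9801 genes (41.8%) had at most 3 counts in each library, which is at most 0.111, 0.0963 and 0.0848 CPM, and 7974 of these had none. The remaining 3038 genes lay between. The median TPM of the detected genes with a length was 24.6, and the 90th percentile was 151.

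A missing count is not proof of a missing transcript in this table. Ribosomal protein genes, which every cell uses, were detected in 74 of 75 cases, yet Rpl26 was listed with no count in any library. Rpl30 (1.40, 1.57 and 1.67 CPM), Rps27 (2.25, 2.47 and 2.49 CPM) and Rpl34 (2.29, 4.14 and 4.10 CPM) were also far under the other members, which ranged upward from 21.3 CPM. These 4 genes were chosen after their values were seen. The cause was not tested, and genes with near-identical copies in the genome have an uncertain level, since the counting rule is not given in the sources used here. Lengths also matter. With the median instead of the longest transcript length, 10 of the 15 genes with the highest TPM were shared and Cst3 stayed first at 36796 TPM, but this length rescales every gene: a gene whose longest and median lengths are equal goes to 0.434 of its TPM. Relative to such a gene, 195 of 348 detected named genes were over 1.5 times higher with the median length. With the longest protein-coding transcript, all 15 were shared and 5 of the 348 moved over 1.5 times. Genes with similar TPM are therefore not ranked against each other.

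The counts were concentrated in few genes. The 10 highest genes took 11.5, 12.3 and 12.7% of all counts, the 100 highest 29.7 to 31.1%, and the 1000 highest 60.7 to 61.8%. Cst3, which encodes the secreted cysteine protease inhibitor cystatin C, was first, at 21199, 26725 and 27037 CPM and 74820 ± 6886 TPM (SD, n = 3). It alone held 2.13 to 2.69% of the counts and 6.69 to 7.95% of the TPM. WT replicate 1 was below the other libraries, which were close together. The lysosomal aspartic protease gene Ctsd followed at 16403, 19112 and 19476 CPM and 22218 TPM. It was likewise lowest in WT replicate 1, by a small margin.

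The C1q chains, which assemble into the recognition molecule of the classical complement pathway, were also near the top on the TPM scale. C1qa was at 5532, 7207 and 7869.7 CPM and 16984 ± 2271 TPM (SD, n = 3), C1qb at 4778, 5456 and 6167 CPM and 12941 TPM, and C1qc at 4978, 5730.5 and 6803 CPM and 12486 TPM. All of these chains were lowest in WT replicate 1 and highest in WT replicate 3. The asparaginyl endopeptidase Lgmn was at 7272, 7819.5 and 8063 CPM (10010 TPM), and the sphingolipid activator precursor Psap at 7538, 7580.2 and 7772 CPM (7421 TPM). The extracellular matrix glycoprotein Sparc was at 7431, 6689.5 and 6633 CPM (7790.2 TPM) and the selectin ligand Selplg at 7044, 6258 and 7561 CPM (7765 TPM). Tmsb4x, an actin monomer binder, and Itm2b, an integral membrane protein, were also among the 15 highest by TPM, as was the lysosomal protease gene Ctss. Ctss stood out among them by its spread, with 2482, 5400.2 and 2716 CPM, since WT replicate 2 was well above the others. By CPM, Laptm5 (5615, 4638 and 5268 CPM) and Vsir, listed as 4632428N05Rik (5024, 5099.7 and 5339 CPM), were also among the 15 highest. Rn45s, the ribosomal RNA precursor, has no length here and was at 3754, 3574 and 3753 CPM.

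**Figure D1:**
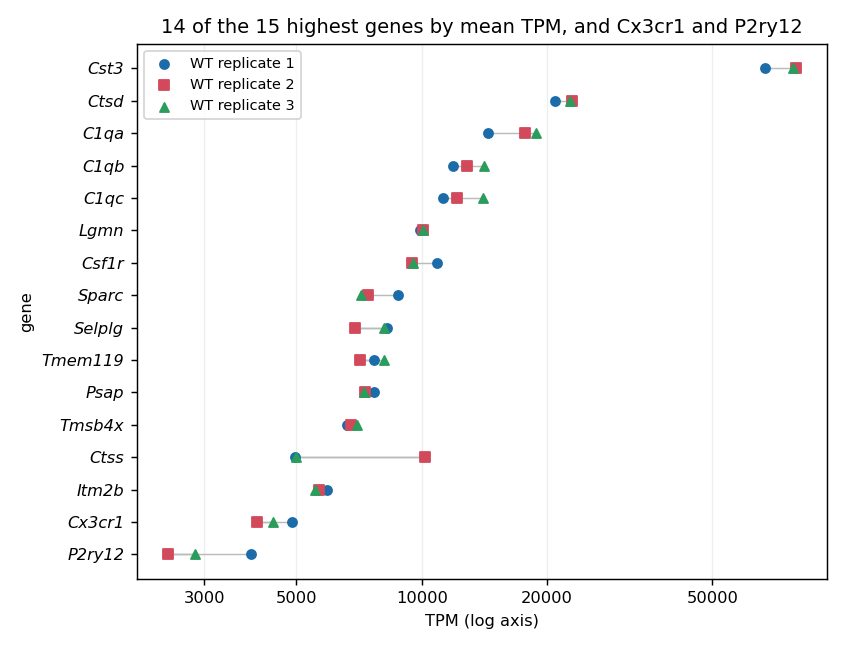
TPM (log axis) of 14 of the 15 genes with the highest mean TPM and of the markers Cx3cr1 and P2ry12, with 1 point for each WT library and a grey line over their range. Cst3 is highest in every library, and the points of Ctss are spread furthest, with WT replicate 2 apart from the other libraries.

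The 5 markers of the sorted population were abundant in every library. Csf1r, the receptor for colony stimulating factor and interleukin-34, was at 18839, 17401 and 17995 CPM and 9950.1 ± 803 TPM (SD, n = 3). Cx3cr1, the fractalkine receptor used in the sort, was at 8052, 7053 and 7957 CPM and 4426 ± 426 TPM (SD, n = 3), rank 19 of all genes by TPM. The microglial membrane protein gene Tmem119 was at 6348, 6237 and 7309 CPM and 7632 ± 495 TPM (SD, n = 3). P2ry12, the ADP receptor that steers process extension, was at 3362, 2256 and 2687 CPM and 3067 ± 741 TPM (SD, n = 3), rank 27. These ranks depend on the length used: with the median transcript length Cx3cr1 was at rank 42 and P2ry12 at rank 65. P2ry12 was highest in WT replicate 1 and lowest in WT replicate 2. All 39 genes of a homeostatic microglia list, chosen with earlier results of these data known, were detected. Their median was 1700 TPM and 37 of them were at 100 TPM or more, while 15.5% of all detected genes with a length reached that level. Bhlhe41 and Ptprc, which encodes CD45, were the lowest of the list at 74.4 TPM and 77.6 TPM, and were named for that. Both were above the median of 24.6 TPM of detected genes. The gate selected low CD45 protein, and its relation to the Ptprc RNA level was not tested. Srgap2, the gene deleted elsewhere in the series, was at 987, 699 and 702 CPM (258 TPM), highest in WT replicate 1.

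Promoters of the most abundant genes held less CpG than those of the detected genes as a whole. RefSeq windows of 300 bases (250 before and 50 after a transcript start, assembly GRCm38.p6) were matched to 17640 genes of the table. The ratio of observed to expected CpG had a median of 0.770 in the windows of detected genes, of which 72.0% exceeded 0.6. It was 0.711 (61.9%) in the 500 highest genes by TPM, 0.457 (38.5%) in the 100 highest, 0.319 (25.7%) in the homeostatic list (35 windows of 29 of its 39 genes) and 0.240 (16.7%) in genes with at most 3 counts. The median over all windows was 0.384. The 4 windows printed here contrast a CpG-poor with a CpG-rich pair of abundant genes, as the 250 bases before the start, 5′ to 3′ on the gene's strand, with every CG in capitals. Cx3cr1 (chr9:120068297-120068546, minus strand) has 4 CG and a ratio of 0.233 in these bases. C1qc (chr4:136892915-136893164, minus strand) has 2 and 0.112. Ctsd (chr7:142387828-142388077, minus strand) has 27 and 0.957, and Tmsb4x (chrX:167209219-167209468, minus strand) has 15 and 0.953.
Cx3cr1: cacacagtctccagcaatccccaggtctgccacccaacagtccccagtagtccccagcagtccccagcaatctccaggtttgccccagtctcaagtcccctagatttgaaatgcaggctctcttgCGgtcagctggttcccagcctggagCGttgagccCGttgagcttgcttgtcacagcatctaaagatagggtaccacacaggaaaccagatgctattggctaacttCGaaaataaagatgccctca
C1qc: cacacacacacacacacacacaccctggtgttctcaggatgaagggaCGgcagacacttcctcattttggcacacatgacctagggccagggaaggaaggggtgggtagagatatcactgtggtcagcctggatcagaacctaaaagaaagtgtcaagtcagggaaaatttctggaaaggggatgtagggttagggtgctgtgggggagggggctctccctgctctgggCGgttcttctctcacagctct
Ctsd: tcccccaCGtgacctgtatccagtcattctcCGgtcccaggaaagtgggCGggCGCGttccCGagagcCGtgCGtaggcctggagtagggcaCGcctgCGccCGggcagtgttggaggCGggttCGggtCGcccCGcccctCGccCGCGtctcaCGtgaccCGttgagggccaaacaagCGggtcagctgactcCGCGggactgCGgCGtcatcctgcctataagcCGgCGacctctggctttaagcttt
Tmsb4x: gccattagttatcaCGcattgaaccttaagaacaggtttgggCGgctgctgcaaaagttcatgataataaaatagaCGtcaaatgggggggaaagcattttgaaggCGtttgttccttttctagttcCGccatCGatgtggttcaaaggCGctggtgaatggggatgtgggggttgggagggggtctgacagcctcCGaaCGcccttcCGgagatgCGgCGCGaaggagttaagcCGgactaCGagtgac
The first pair, a surface receptor and a complement chain, are nearly free of CG, and the second pair, a lysosomal protease and an actin-binding peptide, hold it throughout.

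Short motifs were counted on both strands of the same windows. The PU.1 core GAGGAAGT was in 3.22% of the windows of detected genes, 5.92% of those of the 500 highest by TPM, 10.99% of those of the 100 highest (10 of 91 windows), 5.71% of the homeostatic list, 0 of 83 windows of the identity transcription factor list, 3.35% of those of genes with at most 3 counts and 3.20% of all windows. C1qc holds it on the opposite strand (ACTTCCTC) 195 bases before the start. The ETS letters CCGGAAG, which contain a CG, were in 18.97% of the windows of detected genes, 7.69% of those of the 100 highest, 5.71% of the homeostatic list, 4.82% of the identity transcription factor list and 2.58% of those of genes with at most 3 counts (8.86% of all windows). Tmsb4x holds them 46 bases before the start. TATAAA was in 6.57% of the windows of detected genes, 10.45% of those of the 500 highest, 17.6% of those of the 100 highest, 17.1% of the homeostatic list and 20.9% of those with at most 3 counts (13.6% of all windows). GGAAG is shared by the PU.1 and ETS letters, so the same bases can match both in part. These are matches of letters in short windows that differ in base composition between the sets, and binding was not measured.

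Of 19 purinergic and adenosine receptor genes 8 were detected (42.1%, near the 45.2% of all genes). P2ry12 and P2ry13, both receptors for ADP, were first, and P2ry13 was at 1905, 1771 and 1984 CPM (1929 TPM). P2ry6, the UDP receptor linked to phagocytosis, was at 532, 440.4 and 533 CPM (667 TPM), and the adenosine receptor gene Adora3 at 189, 209 and 199.6 CPM (217 TPM). The ATP-gated channel gene P2rx7 was at 383, 317 and 346 CPM (183 TPM) and P2rx4 at 81.4, 106 and 110.4 CPM (65.6 TPM). P2ry1, P2ry4 and P2rx2 were listed with no count, and P2ry10 had at most 3 counts in each library.

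Of 35 chemokine and chemoattractant receptor genes 17 were detected, and Cx3cr1 stood far above the rest by TPM. Cmklr1, the chemerin receptor, was at 385, 289.6 and 358 CPM (309 TPM), and Gpr183, a receptor for oxysterols, at 218, 209 and 216 CPM (203 TPM). The platelet-activating factor receptor gene Ptafr was at 149 TPM and C3ar1, the receptor for the complement fragment C3a, at 136 TPM. Ccr1 differed more between mice than any other receptor of the list and is described with the variable genes.

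Receptors for growth factors and cytokines were detected in 39 of 53 cases. After Csf1r, the highest were Ifngr1, the ligand-binding chain of the interferon gamma receptor (1056, 905 and 983 CPM, 1203 TPM), and Il10ra (1208, 1127 and 1181 CPM, 866 TPM), the interleukin-10 receptor chain. The TGF-beta receptor kinase gene Tgfbr1 was at 1694, 1499 and 1395 CPM (689 TPM). The TNF receptor genes Tnfrsf1b and Tnfrsf1a were at 479.6 TPM and 418 TPM. Of this list Kit, Pdgfra and Il5ra were listed with no count, and all are receptors of other lineages.

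Sensors of microbial products were broadly present, with 31 of 37 pattern recognition receptor genes and 10 of 12 Toll-like receptor genes detected. Cd14, a co-receptor for lipopolysaccharide, was at 592, 674 and 665 CPM (1012 TPM), and the cyclic dinucleotide sensor Sting1, listed as Tmem173, at 677, 639.5 and 639 CPM (734 TPM). Ly86 (609 TPM) encodes the partner of the product of Cd180 (264 TPM). Ly86 is a gene whose TPM more than doubles, to 1362, with the longest protein-coding transcript. The endosomal nucleic acid sensors Tlr7 and Tlr13 were at 182 TPM and 176 TPM. Clec4d was the gene of this list with at most 3 counts in each library.

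Receptors and adaptors of engulfment were detected in 47 of 60 cases. Fcrls, an Fc receptor-like gene typical of microglia, was at 4145, 4928 and 4758 CPM (5231 TPM). Tyrobp, the signalling adaptor of Trem2, was at 680.2, 844 and 890.4 CPM (3472 TPM), and the integrin gene Itgb5 at 3172, 3598 and 3496 CPM (2691 TPM). Sirpa, whose product binds the signal CD47 and restrains phagocytosis, was at 3975, 3957 and 4082 CPM (2599 TPM) and was among the least variable abundant genes. Fcgr3, an activating Fc receptor, and the lysosomal glycoprotein gene Cd68 were at 1899 TPM and 1625 TPM. Stab2, a scavenger receptor gene, and Vsig4, a complement receptor gene, were listed with no count. Of 26 integrin genes 15 were detected, led by Itgb5 and followed by Itgam (984 TPM) and Itgb2 (719 TPM), which encode the chains of complement receptor CR3.

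Receptors for neurotransmitters were mostly missing. Of 45 genes 9 were detected and 28 had at most 3 counts in each library. The beta adrenergic receptor gene Adrb1 was at 134, 104 and 149 CPM (113 TPM). The metabotropic GABA receptor gene Gabbr1 (32.8 TPM), the cannabinoid receptor gene Cnr2 (29.0 TPM), Vipr1 (17.4 TPM) and the histamine receptor gene Hrh2 (15.8 TPM) were lower. None of 24 GABA-A and glycine receptor subunits and none of 16 nicotinic subunits was detected, and of 19 ionotropic glutamate receptor subunits Grin3b (2.42 TPM) and Grik5 (1.16 TPM) were, at low levels. Among 27 lipid and metabolite receptor genes 12 were detected, led by Gpr34, the receptor for lysophosphatidylserine (1224, 1052 and 1159 CPM, 1419.7 TPM), and Gpr84, a receptor for medium-chain fatty acids (110.3, 226 and 179.6 CPM, 256 TPM). Gpr84 was lowest in WT replicate 1 and highest in WT replicate 2. Of 45 nuclear receptor genes 18 were detected, with the retinoid X receptor gene Rxrb (189.7, 189.6 and 214 CPM, 194 TPM) and Nr1h2, the oxysterol receptor LXR beta (119.5, 114 and 122 CPM, 153 TPM), highest.

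**Figure D2:**
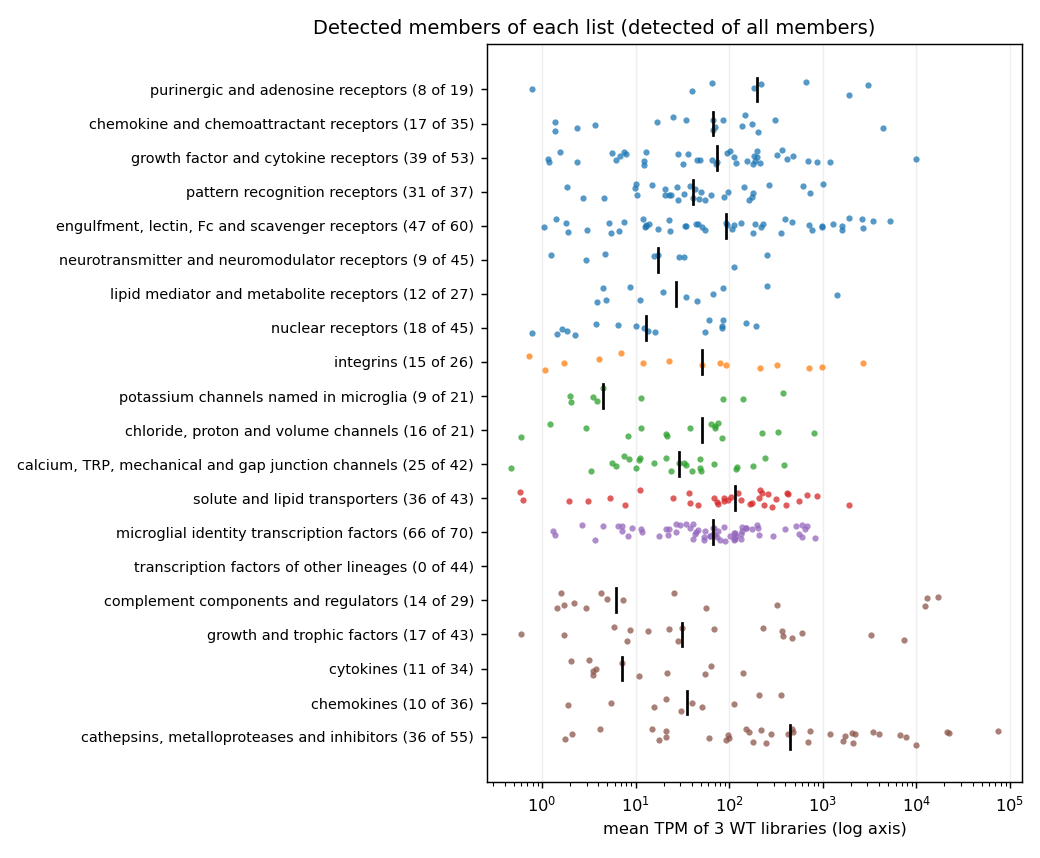
Mean TPM over the 3 WT libraries (log axis) of every detected member of 20 gene lists, 1 point a gene, coloured by class of list, with a black bar at the median of the detected members and the detected and listed numbers beside each name. Proteases and their inhibitors reach the highest levels, and no transcription factor of other lineages is detected.

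Potassium channels were a narrow repertoire. Of 94 genes of the family 14 were detected, and 58 had at most 3 counts in each library. The leak channel gene Kcnk6 was at 665, 525 and 581 CPM (375 TPM), Kcnk13, which encodes the THIK-1 channel that sets the resting potential of microglia, at 140.3, 191 and 177 CPM (142 TPM), and Kcnk12, its relative, at 59.9, 64.7 and 70.7 CPM (85.1 TPM). These exceeded the inward rectifier gene Kcnj2 (11.3 TPM) and the calcium-activated channel gene Kcnn4 (4.46 TPM). None of 20 connexin genes was detected.

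Of 21 chloride, proton and volume channel genes 16 were detected. Clic1, a chloride intracellular channel gene, was at 403, 476 and 481 CPM (797 TPM). The voltage-gated proton channel gene Hvcn1 was at 321, 364 and 393 CPM (330.1 TPM), and Pacc1, a proton-activated chloride channel gene listed as Tmem206, at 163, 207 and 215 CPM (224 TPM). Among 42 genes of calcium, TRP, mechanical and gap junction channels 25 were detected. Tmem63a, an osmotically and mechanically gated channel gene, was at 530.3, 479.9 and 463 CPM (385 TPM), and Orai1, the pore of store-operated calcium entry, at 149, 184 and 198 CPM (243 TPM). The endolysosomal cation channel gene Tpcn1 (178 TPM), Orai3 (121 TPM) and Trpv2 (118 TPM) followed, while Trpa1 and Trpv1, TRP channels known from sensory neurons, were listed with no count. Kcnk13, Orai1 and Pacc1 were lowest in WT replicate 1, and Kcnk6 and Tmem63a were highest there, all by small margins.

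Of 361 genes of the SLC families 182 were detected (50.4%), and of 50 ABC transporter genes 29 (58.0%), against 45.2% of all genes. In a list of 43 solute and lipid transporters 36 were detected. Slco2b1, an organic anion transporter gene, was at 3392, 2893 and 3305 CPM (1888 TPM), and the fructose transporter gene Slc2a5 at 1092, 1026 and 1057 CPM (867 TPM). Slc3a2, the heavy chain of amino acid exchangers, was at 683 TPM, the lysosomal cholesterol carrier gene Npc2 at 561 TPM, and Slc11a1, a divalent metal exporter of the phagosome, at 421 TPM. Slc6a3 and Slc6a4, the dopamine and serotonin transporters of neurons, were listed with no count.

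Nearly every transcription factor of a microglial list was detected, 66 of 70, and none of 44 factors of other lineages was. Both lists were chosen with earlier results of these data known. Cebpa, a factor of myeloid differentiation, was at 728, 873 and 934 CPM (829 TPM), Irf8 at 919, 925 and 911 CPM (684 TPM), and Spi1, which encodes PU.1 and is listed as Sfpi1, at 458, 534 and 538 CPM (646 TPM). Irf5 was at 565, 481 and 520.4 CPM (604 TPM) and Lyl1, a haematopoietic factor, at 369, 387 and 419 CPM (561 TPM). Sall1, a repressor that is selective for microglia among macrophages, was at 1242, 928 and 969 CPM (516 TPM), highest in WT replicate 1. The 4 factors of the list below detection were Fos, Fosb, Bhlhe40 and Klf9. Among the 44 factors of other lineages 32 had at most 3 counts in each library, including Gata1, Gata4, Pax5 and Sox10, and 12 were between. Of 39 HOX genes Hoxb4 (4.98 TPM) was detected, and of 356 Zfp zinc finger genes 289 were.

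Genes of secreted proteins ranged from very abundant products to genes with no count. Of 29 complement genes 14 were detected (48.3%, near the 45.2% of all genes). Far below the C1q chains, Cr1l was at 56.2 TPM and C1rl at 25.6 TPM. C3, the central complement component, was at 1.95, 5.07 and 3.25 CPM (1.71 TPM), a value chosen after it was seen, and C7, C9 and Hc, of the terminal pathway, were listed with no count. Of 43 growth and trophic factor genes 17 were detected (39.5%, against 45.2% of all genes). Psap and Grn, the progranulin gene (2658, 3058 and 3185 CPM, 3269 TPM), were first. The TGF-beta ligand gene Tgfb1 was at 629, 566 and 611 CPM (605 TPM), the ligand of TAM kinases Gas6 at 468 TPM, its relative Pros1 at 369 TPM, and Pdgfb at 373 TPM. Bdnf and Il34 were listed with no count.

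Of 34 cytokine genes 11 were detected and of 36 chemokine genes 10 (32.4 and 27.8%, against 45.2% of all genes). Il16 was at 289, 251 and 315 CPM (140 TPM), Il18 at 19.9, 21.7 and 24.0 CPM (63.7 TPM) and Il1a at 42.0, 45.9 and 38.3 CPM (55.2 TPM). Tnf (3.55 TPM), Il1b (3.21 TPM) and Il6 (2.04 TPM), which were chosen after their values were seen, were close to the detection limit. Among chemokines, Ccl6 (191, 199 and 203 CPM, 354 TPM), Ccl9 (202, 261 and 261 CPM, 207 TPM) and Ccl12 (15.9, 30.5 and 24.9 CPM, 113 TPM) were highest, and Cxcl16 was at 50.7 TPM. Ccl4 (4.68, 14.1 and 12.7 CPM) and Ccl3 (5.20, 12.9 and 9.53 CPM) were lowest in WT replicate 1. None of 18 interferon genes and none of 19 WNT genes was detected.

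Of 55 genes of proteases, their inhibitors and other secreted or lysosomal products 36 were detected, with a median of 446 TPM. Beyond those above, Ctsz was at 1687, 2468 and 2564 CPM (3993 TPM) and Apoe, the lipoprotein gene, at 1870, 1777 and 1919.8 CPM (3406 TPM). Of 23 cathepsins 10 were detected, and of 23 matrix metalloproteases 7, led by Mmp2 (61.1 TPM). Serpine2 (471 TPM) was the highest of 63 serpin genes, of which 6 were detected, and Col27a1 (82.4 TPM) the highest of 44 collagen genes, of which 7 were.

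Genes of activation states were present at graded levels. Of 30 genes of early postnatal and disease-associated microglia 26 were detected, with a median of 71.8 TPM. Ctsd, Ctsz, Apoe, B2m (3294 TPM), Ctsb (2039.8 TPM) and Cd9 (1156 TPM) were high, while Lgals3, Spp1, Fabp5 and Gpnmb stayed below detection. Of 16 genes of embryonic or dividing cells 8 were detected, led by Pcna (98.5 TPM) and Ccnd1 (69.4 TPM). Mki67 and Top2a, named after their values were seen, were at means of 0.271 and 0.410 CPM. MHC class I genes were detected in 20 of 23 cases (median 216 TPM) and MHC class II genes in 11 of 13 (median 62.3 TPM). H2-K1 (370.2, 722 and 647 CPM) and Cd74 (29.5, 73.5 and 55.4 CPM), the invariant chain gene, were both lowest in WT replicate 1. Of 38 interferon response genes 31 were detected at a median of 10.2 TPM, with Lgals3bp (287 TPM) and Bst2 (232 TPM) highest. Of 38 genes known to rise when microglia are dissociated 33 were detected, with a median of 22.6 TPM. Rhob (2843, 2832 and 3285 CPM, 3281 TPM), Junb (397 TPM) and Jund (292 TPM) led, while Fos, Fosb, Hspa1a, Hspa1b and Cxcl2 were below detection. Rhob is also a member of the homeostatic list and is counted in both.

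Markers of other cells were measured in the same libraries. Whether fewer cells of a type or less RNA per cell lies behind a level cannot be told apart in bulk RNA. Of 25 neuronal markers 3 were detected, Syp, Camk2a and Nrgn, and the summed level of the whole list was at most 18.6 CPM in any library. For 26 endothelial and mural markers 5 were detected with a sum of 91.3, 92.2 and 82.3 CPM, mostly Pecam1 (70.3, 74.5 and 66.4 CPM), and Cldn5 was listed with no count. Of 22 monocyte and neutrophil markers 4 were detected, and Csf3r (514, 494 and 456 CPM) held nearly all of their sum of 529, 510 and 470 CPM. S100a8 and S100a9 were listed with no count. Of 19 lymphocyte markers 4 were detected (sums 118, 87.4 and 90.1 CPM), led by Cd79b (40.6, 46.9 and 54.5 CPM) and Il7r (68.7, 34.3 and 27.8 CPM), while Cd3d and Cd3g had no count. Of 14 dendritic and mast cell markers 5 were detected (sums 64.0, 47.7 and 52.1 CPM), and of 11 erythroid and platelet markers Gp9 (36.9, 39.6 and 51.2 CPM) and Pf4 (3.13, 6.48 and 5.03 CPM) were.

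The lists of macroglia and border macrophages each held single abundant members. Of 20 astrocyte markers 10 were detected, and Glul, glutamine synthetase (3112, 2637 and 3183 CPM), held most of a sum of 3310, 2823 and 3386 CPM. Slc1a3 and Mfge8 of the same list were at means of 73.5 TPM and 49.9 TPM, and the median of its detected members was 3.24 TPM. Sox9 had at most 3 counts in each library, Aqp4 a mean of 0.209 CPM and Gfap 1.88, 1.25 and 1.64 CPM. Of 20 oligodendrocyte lineage markers 5 were detected (sums 2499, 2939 and 2787 CPM), led by Trf, transferrin (2257, 2708 and 2526 CPM), Cnp (120.5, 118 and 138 CPM), Mbp (78.4, 61.7 and 73.2 CPM) and Mag (38.8, 46.9 and 46.4 CPM), whereas Sox10 and Olig2 had at most 3 counts in each library. Of 18 markers of border-associated macrophages 16 were detected (sums 1193, 1407 and 1136 CPM). Stab1 (1088, 1246 and 1008 CPM) and Mrc1 (40.9, 63.0 and 43.4 CPM) led, and Cd163 (8.37, 15.2 and 11.4 CPM) and Lyve1 (5.53, 3.24 and 3.82 CPM) were low. Aqp4, Gfap, Olig2, Cd163 and Lyve1 were chosen after their values were seen. The part of other cells in these levels was not tested.

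**Figure D3:**
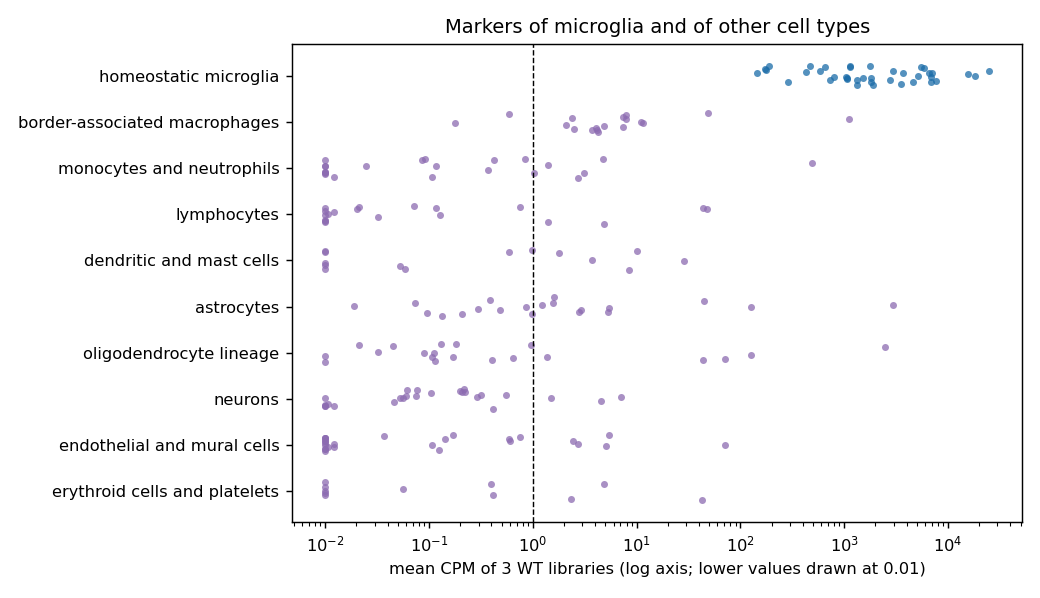
Mean CPM over the 3 WT libraries (log axis) of markers of microglia and of 9 other cell groups, 1 point a gene, with values under 0.01 drawn at 0.01 and a dashed line at 1 CPM. All homeostatic genes lie above 100 CPM, and most markers of other cells lie below 10 CPM. Those above 10 CPM include Glul, Trf, Stab1 and Csf3r, and also Cnp, Mbp, Mag, Pecam1, Mrc1, Cd79b, Il7r and Gp9.

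Gene families of other tissues were nearly empty. Of 1122 olfactory receptor genes none was detected and 1115 had at most 3 counts in each library. The same held for 334 of 335 vomeronasal receptor genes and for all 60 defensin genes. Of 38 taste receptor genes Tas1r3 (1.03 TPM) was detected.

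The 3 mice agreed closely for most genes. Among the 8236 genes with a mean of at least 10 CPM, 4301 (52.2%) had a coefficient of variation (CV, SD over mean) under 10%, 521 exceeded 25% and 34 exceeded 50%. The median CV was 16.5% at 1 to 10 CPM, 10.1% at 10 to 100, 8.56% at 100 to 1000 and 8.02% from 1000 CPM, against 8.31%, 3.09%, 1.36% and 0.419% from counting error alone. Counting error was thus a larger share of the spread at low levels. The biological coefficient of variation of edgeR, its common estimate over 11512 genes, was 0.158. It fell to 0.0994 when WT replicate 1 was left out, and was 0.188 and 0.171 when WT replicate 2 or WT replicate 3 was. Abundant genes with the closest agreement included Itm2b (3908, 3978 and 4001 CPM), Plxnb2 (2229.6, 2228 and 2169.9 CPM), Psap and Sirpa.

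WT replicate 1 stood apart from the other libraries. It differed at least 2-fold from WT replicate 2 in 164 and from WT replicate 3 in 230 of 10581 detected genes, while WT replicates 2 and 3 differed so in 43. Pearson r of log2 CPM across genes, which are not independent, was 0.984, 0.982 and 0.993 for these pairs. Genes at least 2-fold apart in 1 library were counted among the 8236 genes with a mean of at least 10 CPM. That mean can be reached through 1 high library, as by Ddx3y and Mid1, here and in the CV ranking below. The other libraries had to lie within 1.25-fold of each other. In WT replicate 1, 20 genes were at least 2-fold above and 13 at least 2-fold below both others. For WT replicate 2 the numbers were 0 and 1 (Camk2b), and for WT replicate 3 they were 1 (Mid1) and 2. Deviations from the mean of the libraries went with transcript length in all of them, in differing directions. Spearman rho across 10510 genes was 0.50, −0.24 and −0.47 for WT replicates 1, 2 and 3. Deviations from a shared mean are not independent between libraries. The rho with GC content was −0.11, −0.05 and 0.18 in the same order. The part of length in the differences between libraries was not tested.

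Sex-linked transcripts also set WT replicate 1 apart. Levels of Xist, the noncoding RNA that silences an X chromosome, were 0.664, 246 and 129 CPM. The Y-linked genes Ddx3y (30.6, 0 and 0 CPM), Eif2s3y (22.2, 0 and 0 CPM), Kdm5d (20.8, 0 and 0 CPM) and Uty (10.5, 0 and 0 CPM) were counted in that library alone. Sex and any other property of this mouse or library cannot be told apart with 1 such library.

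Among the 20 genes with the highest CV at a mean of 10 CPM or more, several differed by many fold in 1 mouse. Serinc3, which encodes a membrane protein that restricts retroviruses, was at 5145, 839.9 and 836 CPM, and its neighbour Pkig, an inhibitor of protein kinase A, at 108, 35.7 and 35.3 CPM. Both were high in WT replicate 1 and equal within a few percent in the others. No protein-coding gene lies between them in the RefSeq table of GRCm38.p6. Gatm, the first enzyme of creatine synthesis, was at 457, 82.3 and 83.8 CPM, Cacna1a, a neuronal calcium channel subunit gene, at 55.7, 9.73 and 9.98 CPM, and Mmp14 at 39.1, 12.8 and 13.3 CPM, with the same pattern.

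Ccr1 (1.07, 57.5 and 25.7 CPM) and Fyco1 (67.3, 16.7 and 27.5 CPM), which have 2 protein-coding genes between them, varied in opposite directions. Ccr1 was nearly missing from WT replicate 1, where Fyco1 was highest, and WT replicate 2 had the most Ccr1 and the least Fyco1. Map7 (26.1, 0.225 and 14.6 CPM) and Gdpd3 (68.8, 4.08 and 134 CPM) were instead low in WT replicate 2. Ttr, transthyretin, which is made by the choroid plexus (2.14, 1.41 and 30.2 CPM), and Mid1, a gene at the boundary of the pseudoautosomal region (2.32, 2.31 and 30.6 CPM), were high in WT replicate 3 alone. Pde2a (5.20, 30.9 and 26.6 CPM) and Rnaset2b (26.0, 130.2 and 114 CPM) were low in WT replicate 1, and Rnaset2b has a near-identical copy, Rnaset2a, so that its level is uncertain. Of the 20 genes 18 had a place in the RefSeq table, and the Serinc3 with Pkig and Ccr1 with Fyco1 pairs were the neighbours found among them.

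**Figure D4:**
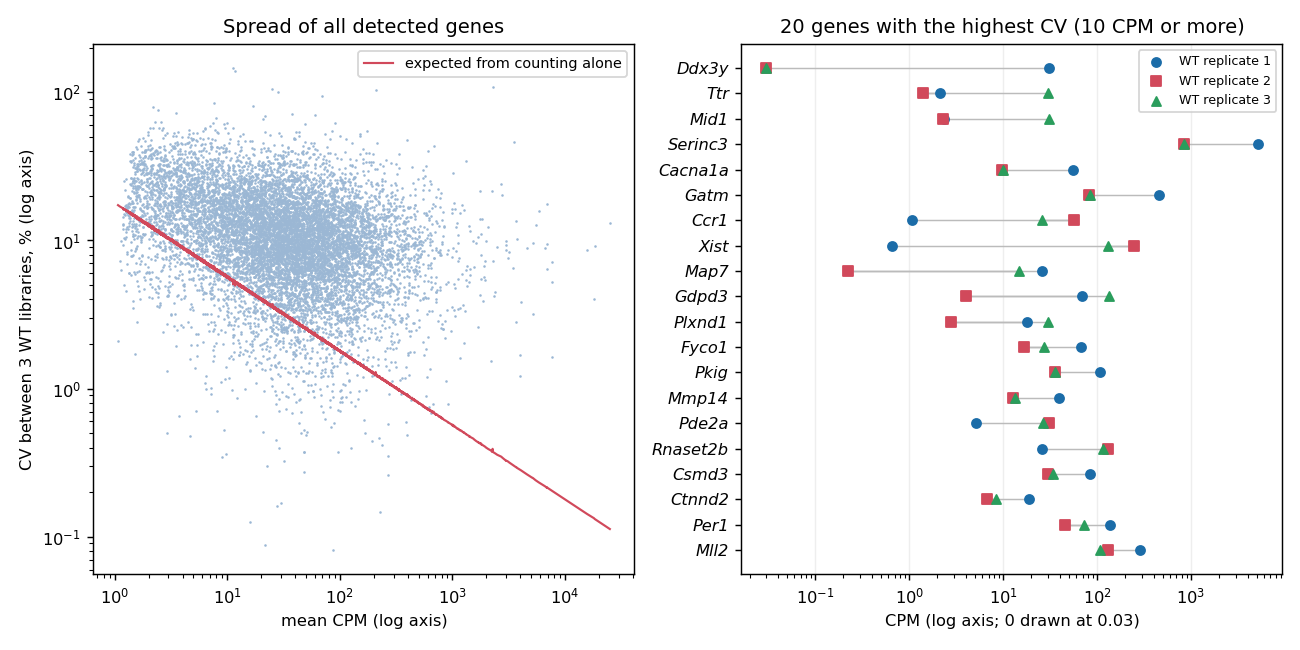
Left, the CV between the 3 WT libraries (percent, log axis) against the mean CPM (log axis) of each detected gene, with the CV from counting error alone as a line. Right, CPM (log axis, 0 drawn at 0.03) in each WT library of the 20 genes with the highest CV at a mean of 10 CPM or more; for several of them, such as Serinc3 and Gatm, WT replicate 1 lies apart from the other libraries.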

How the data were processed

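RNA was measured by sequencing in 3 WT libraries of sorted cortical microglia. The authors deposited 1 table of whole-number counts per gene symbol, not normalized. DRAGEN and GRCm39 are named per the submitters' processing notes, and no source used here gives the annotation, the counting rule or the strand setting. Of the symbols, 21571 are current in RefSeq (GRCm38.p6) and 1713 are synonyms. Lengths came from GENCODE M21, another build (22998 genes, 1221 by synonym), so no coordinates were joined. The 422 genes without a length, 0.648 to 0.660% of the counts, have no TPM.

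TMM factors of edgeR (4.0.16, R 4.3.3) were 1.0041, 1.0055 and 0.9904. Dispersion was fitted with an intercept after filterByExpr (least count 10, least total 15). This fit was tested on simulated data, and DESeq2 (1.42.0) was an alternative. No test was made, since the libraries form 1 group. The spread between 3 mice is the error throughout, and no pair was a repeat (chi-square per degree of freedom 52.8, 60.6 and 18.0).

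The 37 gene lists, the families and the members were chosen with earlier results of these data known, and some family patterns and 2 list entries were corrected after the counts were seen. Genes named are the markers, Srgap2 and sex-linked genes, the 15 highest by TPM and by CPM, up to 6 detected members of each list or family by TPM (4 by CPM for other cell types), up to 4 with at most 3 counts, and the 20 with the highest CV. Any other gene named, mostly below detection, was chosen after its values were seen. The counts include several genes whose own values are not reported here.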

Additional observations from a re-analysis of the deposited data

How the results depend on the processing

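The number of detected genes stayed between 9041 and 11172 with other scaling factors, thresholds of 0.5 or 5 CPM or any one library left out. A threshold of 5 CPM moved the detected count over 1.5 times in 28 of 83 lists and families, 0.5 CPM in 5, and leaving out WT replicate 1 or 3 in 1 and 3. CPM of 599 of 601 named genes stayed within 1 SD in every case, the others moving without WT replicate 3. This tally does not measure stability. Apart from rescaling, leaving out 1 of 3 libraries cannot move a mean by 1 SD, and a gene with no count cannot move. The median transcript length, which takes a gene whose longest and median lengths are equal to 0.434 of its TPM, moved the TPM of 312 of the 601 beyond their SD, a tally that includes this common factor, and the longest protein-coding transcript, an alternative chosen after seeing the data, 80. On TPM the 10, 100 and 1000 highest genes held 19.8, 39.3 and 68.3%. The biological coefficient of variation was 0.169 without a filter, 0.150 with a filter of 1 CPM, 0.145 by DESeq2 and 0.0994 to 0.188 with 1 library left out. In the 500 highest genes in place of all detected genes, the share of promoter windows was 5.92% for the PU.1 core, 1.38% for ETS-IRF, 2.96% for AP-1, 2.56% for CRE, 0% for the SMAD palindrome, 0.394% for the E-box, 10.5% for TATA and 16.0% for the ETS letters, against 3.22, 2.39, 4.67, 3.09, 0.237, 0.740, 6.57 and 19.0%. The causes were not tested. No paired analysis was possible because only the WT group was used. Levels near 3 counts are limited by depth.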
